A study of Mus musculus with 4 samples.

Results

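The 4 Hox clusters were taken as all genomic probes lying in chr6:52095000-52220000 (HoxA), chr11:96050000-96235000 (HoxB), chr15:102740000-102875000 (HoxC) and chr2:74495000-74610000 (HoxD) of the mouse build mm9. They held 410 of the 174638 genomic probes on each array, 125 in HoxA, 101 in HoxB, 78 in HoxC and 106 in HoxD. The clusters carry 38 member genes, 10 each in HoxA and HoxB and 9 each in HoxC and HoxD. The windows are defined by position, and the clusters were picked for description with earlier results of these data known.

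Hox genes encode homeodomain transcription factors that give cells their address along the body axis. In mammals they sit in clusters on separate chromosomes, and within a cluster their order along the DNA follows the order in which they are used from head to tail. The clusters are rich in CpG islands, which often carry little DNA methylation, and their states are kept by Polycomb and Trithorax proteins. Fibroblasts in culture keep a Hox pattern that reflects their place of origin in the body.

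DNA methylation was profiled by precipitating DNA with an antibody against 5-methylcytosine and hybridizing it, beside input DNA, to a 2-colour array of promoter-sized segments (MeDIP-chip). Wild-type 3T3-L1 preadipocytes, a mouse line that can be turned into fat cells in culture, served as control, and the other line was 3T3-L1 stably transfected with shRNA8 against the long non-coding RNA slincRAD. Cells of each line were taken once ahead of the induction of fat cell formation (day -2) and once in its course (day +2), the latter in medium with 167 nM insulin, 1 µM dexamethasone and 0.5 mM 3-isobutyl-1-methylxanthine given from day 0. With 1 array for each line and day there is no replicate error, and no test was made. The control is the untransfected line, with no shRNA of its own, and whether the shRNA8 cells are 1 clone or a pool is not given in the sources used here. The label of the input of shRNA8 cells at day +2 reads as before induction, while its day and its IP label say after. Both shRNA8 arrays took slide positions 1 and 2 and both control arrays positions 3 and 4, so that line and position cannot be told apart. The arrays hold DNA, so neither the slincRAD level nor any cell type marker could be checked.

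The tiling of the clusters was patchy. Probes fell into 49 segments of 1351 to 3937 bp, with a median width of 1682 bp and 7 to 17 probes each. The segments covered 24.7% of the span in HoxA, 12.2% in HoxB, 14.3% in HoxC and 21.1% in HoxD, and the DNA between them was not measured. Probes carry mm9 coordinates but no gene names in the files, while the available gene table is of GRCm38, so no segment was given to a single Hox gene. The order of the member genes in that table places Hoxb13, Hoxc13 and Hoxd13 at the low-coordinate end of their clusters and Hoxa13 at the high-coordinate end, with Hoxa2, Hoxb1, Hoxc4 and Hoxd1 at the opposite ends. Positions are given below as distances from the outermost probe at the end of paralogue group 13.

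CpG is the dinucleotide in which most mammalian DNA methylation lies, and its density differed widely among Hox promoters. RefSeq promoter windows of GRCm38.p6, reaching from 250 bases before to 50 bases after a transcription start, matched 22 of the 38 genes with 24 windows. The dinucleotide CG, which reads the same on both strands, occurred 4 to 45 times in them, with a median of 14.5, against a median of 7 over 32851 mouse promoters. At least 20 CpGs were found in 11 of the 24 Hox windows and in 26.5% of all windows. Below stand the Hox promoters with the most and with the fewest CpGs in HoxA and a matching pair from HoxD, with each CpG in capitals, from RefSeq on GRCm38.p6. Hoxa13 (chr6:52260831-52261130, minus strand) has 45 CpGs, a count reached by 1.93% of all promoters, and Hoxa9 (chr6:52227321-52227620, minus strand) has 4. Hoxd13 (chr2:74667975-74668274, plus strand) has 37, and Hoxd4 (chr2:74721728-74722027, plus strand), which shares the lowest count in its cluster with 1 of the 2 Hoxd11 windows, has 4.
Hoxa13: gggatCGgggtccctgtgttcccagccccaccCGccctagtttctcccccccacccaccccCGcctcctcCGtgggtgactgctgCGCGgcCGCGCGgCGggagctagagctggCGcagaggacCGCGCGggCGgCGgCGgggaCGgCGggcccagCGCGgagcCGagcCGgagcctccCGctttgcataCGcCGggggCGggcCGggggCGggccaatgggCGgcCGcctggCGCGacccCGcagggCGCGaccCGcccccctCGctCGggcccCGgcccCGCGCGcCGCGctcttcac
Hoxa9: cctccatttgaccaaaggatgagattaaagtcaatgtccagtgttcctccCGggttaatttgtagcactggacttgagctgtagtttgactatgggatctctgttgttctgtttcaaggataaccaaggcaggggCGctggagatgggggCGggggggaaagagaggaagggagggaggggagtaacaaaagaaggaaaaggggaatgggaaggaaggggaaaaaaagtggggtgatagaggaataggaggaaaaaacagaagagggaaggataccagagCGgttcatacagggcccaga
Hoxd13: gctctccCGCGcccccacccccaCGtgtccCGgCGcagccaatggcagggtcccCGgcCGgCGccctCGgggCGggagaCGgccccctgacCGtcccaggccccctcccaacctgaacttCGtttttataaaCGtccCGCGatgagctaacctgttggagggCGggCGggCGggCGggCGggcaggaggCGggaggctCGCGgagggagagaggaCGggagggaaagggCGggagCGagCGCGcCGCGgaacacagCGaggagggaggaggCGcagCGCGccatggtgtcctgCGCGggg
Hoxd4: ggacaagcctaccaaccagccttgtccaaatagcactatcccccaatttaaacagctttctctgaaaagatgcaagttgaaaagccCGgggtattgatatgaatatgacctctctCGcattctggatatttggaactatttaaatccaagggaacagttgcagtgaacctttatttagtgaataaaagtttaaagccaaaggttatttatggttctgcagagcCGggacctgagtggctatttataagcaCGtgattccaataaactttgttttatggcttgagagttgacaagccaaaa
These windows are of another build than the probes and were not joined to them.

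Over all probes, both channels were brighter in the clusters than on the array as a whole. With background subtracted, IP had a median of 61.3 (day -2) and 61.4 (day +2) in control cells and 69.4 and 69.5 in shRNA8 cells, against 49.1, 48.9, 56.1 and 56.5 over all probes. Input had a median of 9.13 and 7.67 in control cells and 12.5 and 12.3 in shRNA8 cells, against 6.49, 5.95, 8.64 and 8.78 over all probes. These inputs were smaller than the background taken off them, which had a median of 21.5 to 26 in the clusters. Of the 410 probes, 252 (61.5%) were unflagged and had input above background on all 4 arrays, compared with 54.4% of all probes. This share was 56.0% in HoxA, 65.3% in HoxB, 69.2% in HoxC and 58.5% in HoxD. The probes left out had a median input of 1.41 to 3.42 and a median IP of 17.4 to 20.7 and do not enter the ratios. Among the kept probes, which make the ratios, the median IP was 143, 148, 167 and 168 in the clusters and 146, 148, 168 and 169 over the array, close to each other, while the median input was 27.9, 26.3, 42.0 and 37.1 against 21.9, 20.3, 29.3 and 28.4. Kept probes up to 1000 bp apart, at least 3 together, gave 47 Hox regions, 12 in HoxA, 13 in HoxB, 10 in HoxC and 12 in HoxD, among 17452 regions on the array.

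The ratio of IP to input in the Hox clusters lay close to that of the rest of the array. It is given as log2, with each array's median at 0, after quantile normalization, which gives the 4 arrays one distribution and removes any overall difference between them. The HoxA probes had a median of 0.12 (day -2) and 0.10 (day +2) in control cells and of 0.18 in shRNA8 cells at both days, a mean of 0.14 ± 0.04 (SD over the 4 arrays, which are not replicates). HoxB lay at -0.05, 0.03, -0.15 and -0.13 in the same order, with a mean of -0.07 ± 0.08. HoxC lay at -0.07, -0.21, 0.03 and -0.17, with a mean of -0.11 ± 0.11. HoxD lay at -0.37, -0.41, -0.33 and -0.38, with a mean of -0.37 ± 0.03. HoxA was the highest and HoxD the lowest cluster on each array, while HoxB and HoxC changed places and were within their spread of each other.

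The clusters overlapped widely at the level of probes. The quartiles of the HoxA probes were -0.80 and 0.63 and those of the HoxD probes -1.34 and 0.51. Of the probes, 39 of 70 lay above the array median in HoxA, 31 of 66 in HoxB, 26 of 54 in HoxC and 23 of 62 in HoxD, beside 50.5% of all other probes. Probe length moved with the ratio on these arrays, since probes of 45 bp outside the clusters had a median of 0.03 and those of 60 bp -1.36. With the median of other probes of the same length taken away, HoxA came to 0.14, HoxB to -0.14, HoxC to -0.11 and HoxD to -0.30. Among probes of 45 bp alone, HoxA stood at 0.04 and HoxD at -0.44. The HoxA value ran from -0.09 to 0.13 over the arrays, a range that holds the 0.03 of other probes of 45 bp. HoxC rather than HoxA was highest after a within-array loess (0.12 against 0.03). HoxC was lowest without background subtraction (-0.35 against -0.28 in HoxD) and by the mean over probes (-0.77 against -0.65).

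By region, the 47 Hox regions had a mean ratio of -0.50 ± 0.87 (SD over regions) and a median of -0.39, compared with -0.27 ± 0.82 and -0.20 over the 17405 other regions. The ratio was above 0 in 16 of 47, or 34.0%, and in 39.5% of the others. The lowest 10% of the other regions lay under -1.32, where 9 of the 47 (19.1%) were found, and their highest 10% over 0.70, where 2 (4.26%) were found. The 262 other regions with at least 10 probes, which are long stretches of dense tiling, had a narrower spread, with -0.22 ± 0.52. The order of the Hox regions was much the same on every array, with Pearson's r of 0.956 to 0.971 between any pair of arrays across the 47 regions, as over the other regions (0.932 to 0.955). These regions share slide, probes and base composition, so the likeness describes the arrays and is not a replicate check.

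**Figure D1:**
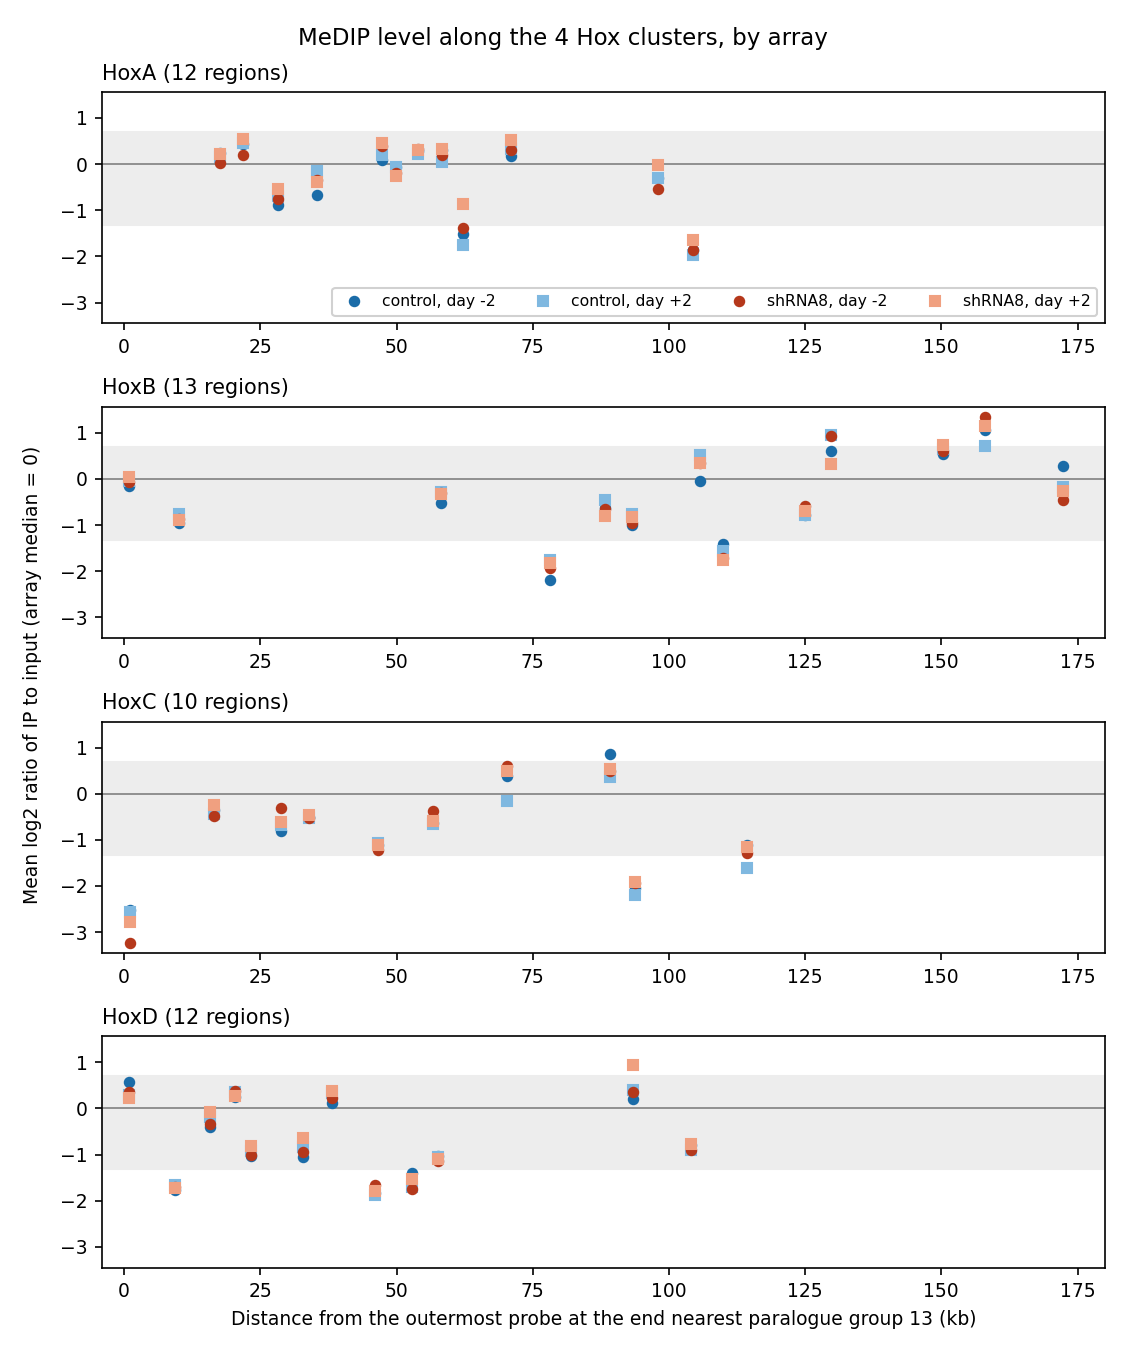
Mean log2 ratio of IP to input of each Hox region (y axis, array median at 0) against its distance in kb from the end of the cluster nearest paralogue group 13 (x axis), one panel per cluster and one symbol per array. The grey band runs from -1.32 to 0.70 and leaves out the lowest and the highest 10% of the other regions. The 4 symbols of a region mostly lie close together, with a median range of 0.33, while neighbouring regions can lie further apart, as at 0.56 and -2.02 in HoxC.

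HoxA, on chromosome 6, had the narrowest spread over its regions, with an SD of 0.72 against 0.85 to 1.01 in the other clusters. Split at the middle of the cluster, its 6 regions in the part toward Hoxa13 averaged -0.07 ± 0.43 and those in the part toward Hoxa2 -0.45 ± 0.94, with 3 of 6 above 0 in each. The highest were chr6:52190407-52192087 at 21.8 kb, with 0.43 (day -2) and 0.46 (day +2) in control cells and 0.20 and 0.55 in shRNA8 cells, and chr6:52141208-52142863 at 71.1 kb, with 0.17, 0.33, 0.31 and 0.52. The lowest was the region nearest the Hoxa2 end, chr6:52107817-52109537, with -1.87, -1.98, -1.86 and -1.64. Its IP signal was 164 to 194 and its input 62.2 to 90.8, so that this low ratio stood on a bright input. The next lowest, chr6:52150233-52151570 at 62.2 kb, was dim in both channels, with IP of 33.6 to 44.0 and input of 10.7 to 18.7, and is taken up again below.

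HoxB, on chromosome 11, held the highest Hox region, and its highest regions lay toward Hoxb1, though the parts of the cluster differed by less than the spread over their regions. That spread, here and below, is the scatter of single regions and not an error of a mean. None of its 4 regions in the part toward Hoxb13 was above 0 and their mean was -0.81 ± 0.82, while 4 of 9 were above 0 in the part toward Hoxb1, with a mean of -0.15 ± 0.88. Across the 13 regions the ratio correlated with distance from the Hoxb13 end with Spearman's rho of 0.467, the IP signal with -0.176 and the input with -0.489, given as descriptions. The outermost regions went against that order, with -0.06 nearest Hoxb13 and -0.16 nearest Hoxb1. The highest Hox region of all, chr11:96211655-96213198 at 158 kb, had ratios of 1.06, 0.72, 1.33 and 1.14. The other one over 0.70 was chr11:96183539-96184736 at 130 kb, with 0.61, 0.96, 0.93 and 0.32, on only 3 probes and an input of 3.94 to 11.7. The lowest were chr11:96132220-96133098 at 78.3 kb (-2.20, -1.75, -1.93 and -1.82) and chr11:96163539-96165269 at 110.0 kb (-1.41, -1.56, -1.72 and -1.75).

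HoxC, on chromosome 15, held the lowest Hox region, at its Hoxc13 end. At chr15:102750710-102751867 the ratio was -2.52 (day -2) and -2.57 (day +2) in control cells and -3.23 and -2.79 in shRNA8 cells, with IP of 95.5 to 120 and a very bright input of 368 to 466. All 6 regions in the part toward Hoxc13 were below 0, with a mean of -0.99 ± 0.91. The 4 regions in the part toward Hoxc4 averaged -0.61 ± 1.25, with 2 above 0, so the parts differed by less than the spread over their regions. Across the 10 regions the ratio correlated with distance from the Hoxc13 end with Spearman's rho of 0.055, given as a description. In the rest of the cluster, chr15:102838708-102840270 at 89.2 kb had 0.86, 0.37, 0.49 and 0.54, and chr15:102819701-102821452 at 70.3 kb had 0.37, -0.15, 0.61 and 0.49. The next region, chr15:102843203-102844762 at 93.7 kb, had -2.05, -2.20, -1.93 and -1.91, lower than its neighbour on all 4 arrays.

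HoxD, on chromosome 2, had 4 of 12 regions above 0, set apart from each other by lower ones. The region at the Hoxd13 end, chr2:74497184-74498733, had ratios of 0.57, 0.30, 0.35 and 0.22, and the next one, chr2:74505862-74506676 at 9.29 kb, had -1.77, -1.65, -1.71 and -1.72. Their IP signals were 140 to 163 and 262 to 312, and their inputs 6.28 to 13.2 and 112 to 155, so that the region with the lower ratio had more of both kinds of DNA signal. The lowest, chr2:74542742-74543489 at 46.1 kb, had -1.83, -1.87, -1.66 and -1.79 with the brightest IP of any Hox region named here, 447 to 531, over an input of 194 to 223. The highest on average, chr2:74589714-74591117 at 93.4 kb toward Hoxd1, had 0.20, 0.40, 0.35 and 0.95 with an input of 6.13 to 9.21.

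Across the 47 Hox regions the ratio followed the input more than the IP. The mean ratio of a region correlated with its mean input level with Pearson's r of -0.721 and with its mean IP level with 0.065. Over the other regions these values were -0.271 and 0.498. The IP and input levels correlated with each other with r of 0.645 in the Hox regions and 0.699 elsewhere. The ratio is made from both channels, the channels share probes, depth and base composition, and the values are given as descriptions. The input of the Hox regions averaged 0.52 ± 1.13 above the array median on the log2 scale, against 0.34 ± 1.00 elsewhere, and their IP -0.18 ± 0.79, against -0.12 ± 1.11.

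**Figure D2:**
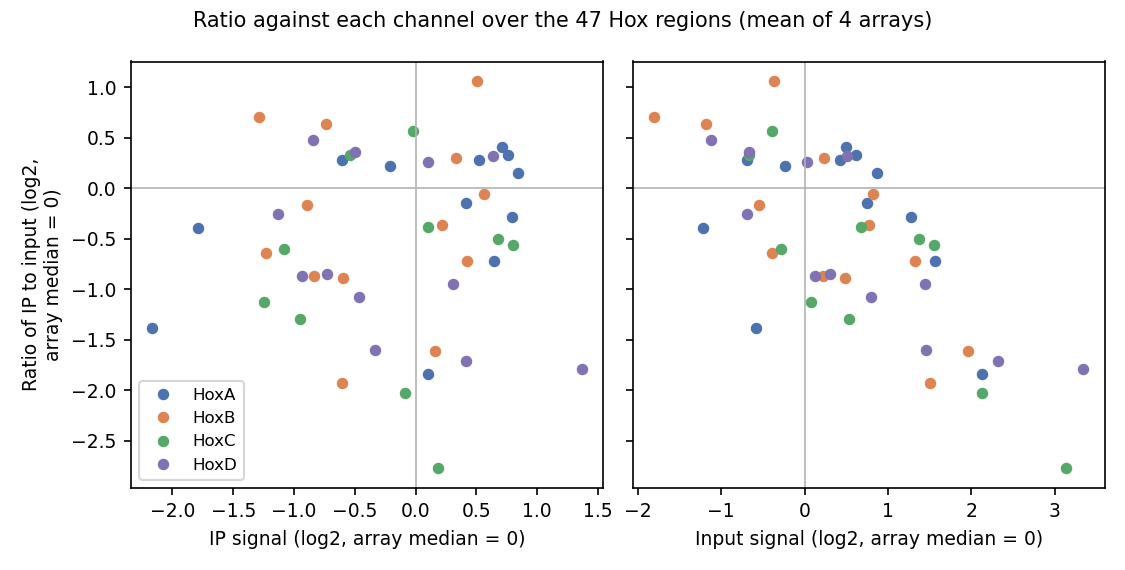
Mean log2 ratio of each of the 47 Hox regions (y axis) against its log2 IP signal (left) and log2 input signal (right), each with the array median at 0 and averaged over 4 arrays, coloured by cluster. The ratio falls toward bright input, with r of -0.721, and has little slope on IP, with r of 0.065.

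The comparison of the lines at day -2 asks how shRNA8 cells differed from control cells before induction. Regions were called by size alone, from a mean log2 difference of 0.6 (1.52-fold) upward that 75% or more of the probes shared in sign. By this rule 2 of 47 Hox regions were lower in shRNA8 cells and 0 higher, beside 1.25% lower, 1.18% higher and 2.43% called either way among all 17452 regions. The mean difference over the Hox regions was 0.01 ± 0.25 (SD over regions), with 29 of 47 above 0, compared with 0.00 ± 0.26 over the other regions, of which 51.0% were above 0. By cluster it was 0.01 ± 0.20 in HoxA, 0.07 ± 0.30 in HoxB, -0.04 ± 0.34 in HoxC and 0.00 ± 0.16 in HoxD, each less than its spread over regions. The largest difference upward, 0.49 ± 0.42 (SD over 3 probes) at chr15:102778509-102779590 in HoxC, did not reach the rule. In the IP channel alone the Hox regions differed by -0.16 to 0.08, and in input by -0.43 to 0.59.

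At day +2, after induction, 1 of 47 Hox regions was higher in shRNA8 cells and 0 lower, beside 1.4% higher, 1.94% lower and 3.34% either way among all regions. The mean difference was 0.08 ± 0.26 with 30 of 47 above 0, compared with 0.00 ± 0.29 and 52.5% over the other regions. It was positive in HoxA (0.18 ± 0.29, 10 of 12 above 0), HoxC (0.17 ± 0.25, 8 of 10) and HoxD (0.09 ± 0.17, 8 of 12) and negative in HoxB (-0.08 ± 0.25, 4 of 13 above 0), within the spread over regions in each. The spread of single regions gives no error of a cluster mean. The rest of chromosomes 6, 15 and 2 averaged 0.00, 0.00 and 0.02, and that of chromosome 11 averaged 0.01. The input moved the opposite way, by -0.21 in HoxA, -0.22 in HoxC, -0.13 in HoxD and 0.04 in HoxB, while the IP moved by 0.01, 0.03, 0.03 and 0.00. The Hox mean was -0.01 without a filter on input, 0.03 with input well above background and 0.01 for the IP channel alone. A pair of regions passed the size but not the share of probes, chr15:102819701-102821452 in HoxC with 0.65 ± 1.46 over 6 probes and chr11:96183539-96184736 in HoxB with -0.64 ± 1.15 over 3.

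In control cells the change from day -2 to day +2 asks how unmodified cells differed after induction. No Hox region of 47 passed the rule in either direction, beside 0.986% higher, 1.11% lower and 2.09% either way among all regions. The mean change was 0.01 ± 0.25, with 24 of 47 above 0. HoxB averaged 0.12 ± 0.29 (9 of 13 above 0) and HoxC -0.17 ± 0.24 (2 of 10 above 0), while HoxA and HoxD averaged 0.02 ± 0.21 and 0.03 ± 0.18. The HoxC input was above that of day -2 in 8 of 10 regions, by 0.16 ± 0.27, and its IP was above that of day -2 in 1 of 10, with a difference of -0.05 ± 0.04. Among the 17405 other regions input was higher at day +2 in 9107, with a mean difference of 0.01 ± 0.26. Their IP was higher in 6745, with a mean difference of -0.02 ± 0.06, so IP was lower in most regions of the array. The widest changes were 0.57 ± 0.40 over 4 probes at chr11:96159606-96160697 in HoxB and -0.53 ± 1.14 over 6 probes at chr15:102819701-102821452 in HoxC.

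In shRNA8 cells 1 of 47 Hox regions was lower at day +2 than at day -2 and 0 higher, beside 2.21% lower, 0.98% higher and 3.19% either way among all regions. The mean change was 0.08 ± 0.22 with 30 of 47 above 0, compared with 0.00 ± 0.27 and 53.0% over the other regions. HoxA averaged 0.19 ± 0.20 (9 of 12 above 0), HoxD 0.13 ± 0.21 (8 of 12), HoxC 0.04 ± 0.22 and HoxB -0.04 ± 0.21. The input differed by -0.18 in HoxA and -0.14 in HoxD and the IP by 0.01 in each. The largest change upward was 0.59 ± 0.21 over 3 probes, all higher, at chr2:74589714-74591117 in HoxD, just under the rule, with input going from 9.21 to 6.13 and IP from 132 to 139. Each comparison between days shares 1 array with each comparison between lines.

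**Figure D3:**
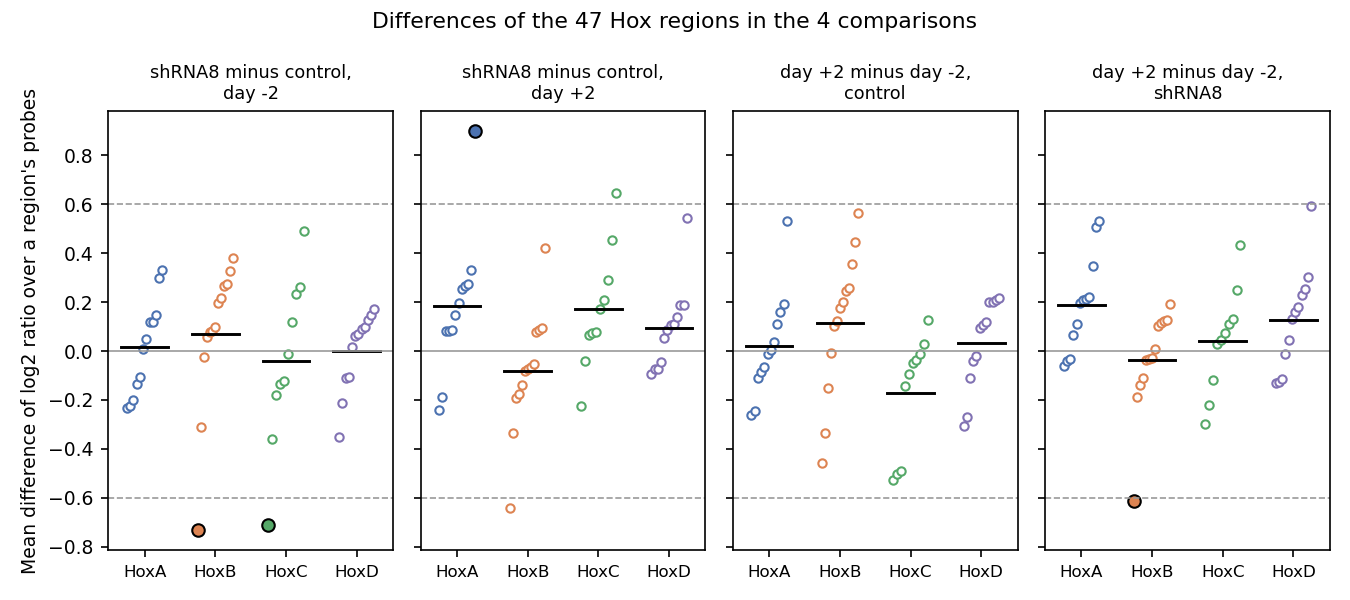
Mean difference of log2 ratio of each Hox region (y axis) by cluster (x axis) in the 4 comparisons, with the cluster mean as a black bar, dashed lines at -0.6 and 0.6, and filled symbols for regions that passed the size rule. Filled symbols number 2, 1, 0 and 1 from left to right, and most points lie between the dashed lines.

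Over the 4 comparisons 4 of 47 Hox regions passed the rule once, or 8.51%, and none passed it more than once, while 8.58% of the other regions passed at least once. A mean difference of at least 0.4 in size was found in 11.5% (day -2) and 14.3% (day +2) of all regions between the lines, and in 10.8% (control) and 11.4% (shRNA8) between the days. In the same order it was found in 3, 6, 7 and 5 of the 47 Hox regions. No Hox region reached 0.4 with the same sign in the line difference at both days, which 2.23% of the other regions did, or in the day change of both lines, which 1.76% did. The line differences at day -2 and day +2, which share no array, correlated with r of 0.077 over the 47 regions and had the same sign in 28. Over the other regions r was 0.195 and the sign was the same in 56.9%. The day changes of the lines, which also share no array, correlated with r of -0.076 over the Hox regions, with the same sign in 25 of 47, and with r of 0.113 and the same sign in 52.8% over the other regions. A difference under 0.4 in all 4 comparisons was found in 33 of 47 Hox regions (70.2%) and in 69.0% of the others.

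The region past the rule at day +2 between the lines was chr6:52150233-52151570 in HoxA. Its ratio was -1.51 (day -2) and -1.76 (day +2) in control cells, and -1.39 and -0.86 in shRNA8 cells, with the day +2 array of shRNA8 cells the highest. The difference at day +2 was 0.90 ± 0.60 (SD over 5 probes), with all 5 probes higher, by 0.14 to 1.75. The IP differed by 0.14 and the input by -0.89. At the 2 probes with the largest differences the input was 37.1 and 6.07 in control cells and 21.7 and 3.06 in shRNA8 cells, and the IP was 59.6 and 7.20 in control cells and 63.5 and 10.96 in shRNA8 cells. At the second of these, which had the largest difference, both channels thus differed. The difference came to 0.18 without a filter on input, 0.57 with input well above background, which left 2 probes, and 0.25 without background subtraction. It came to 0.94 with probe length medians removed, 1.01 with median centring alone and 1.18 after loess.

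The regions past the rule at day -2 between the lines lay at the outer ends of HoxB and HoxC. At chr11:96226044-96227291, the last region at the Hoxb1 end, the ratio was 0.27 (day -2) and -0.19 (day +2) in control cells and -0.46 and -0.27 in shRNA8 cells, so that control cells at day -2 stood above the other arrays. The difference was -0.73 ± 0.78 over 6 probes, 5 of them lower, with IP at -0.16 and input at 0.59. It was -0.08 at day +2. At chr15:102750710-102751867, at the Hoxc13 end, it was -0.71 ± 1.37 over 4 probes. There 1 probe differed by -2.74, with an input of 6.29 in control and 46.5 in shRNA8 cells and an IP of 67.1 and 62.4, while the other 3 differed by -0.17 to 0.20. With input well above background, which leaves that probe out, the difference was -0.04.

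The region past the rule between the days in shRNA8 cells was chr11:96183539-96184736 in HoxB. All 3 probes were lower at day +2, by -0.62 ± 0.48 on average, with IP at -0.01 and input at 0.62. The 3 inputs went from 5.71, 10.4 and 5.87 to 11.7, 11.7 and 8.57, below the median background of 24 to 26 on those arrays. In control cells the same region differed by 0.36 ± 1.00, where 1 probe was higher by 1.51 and the others differed by -0.22 and -0.23. In these 4 regions the ratio and the input moved in opposite directions, and the IP differed by -0.16 to 0.14 on the log2 scale. Over the other regions the IP difference had an SD of 0.068 (day -2) and 0.053 (day +2) between the lines. Between the days in shRNA8 cells that SD was 0.066. The IP differences of the regions past the rule between the lines exceeded this SD and had the sign of the ratio. That of the region between the days lay within it.

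**Figure D4:**
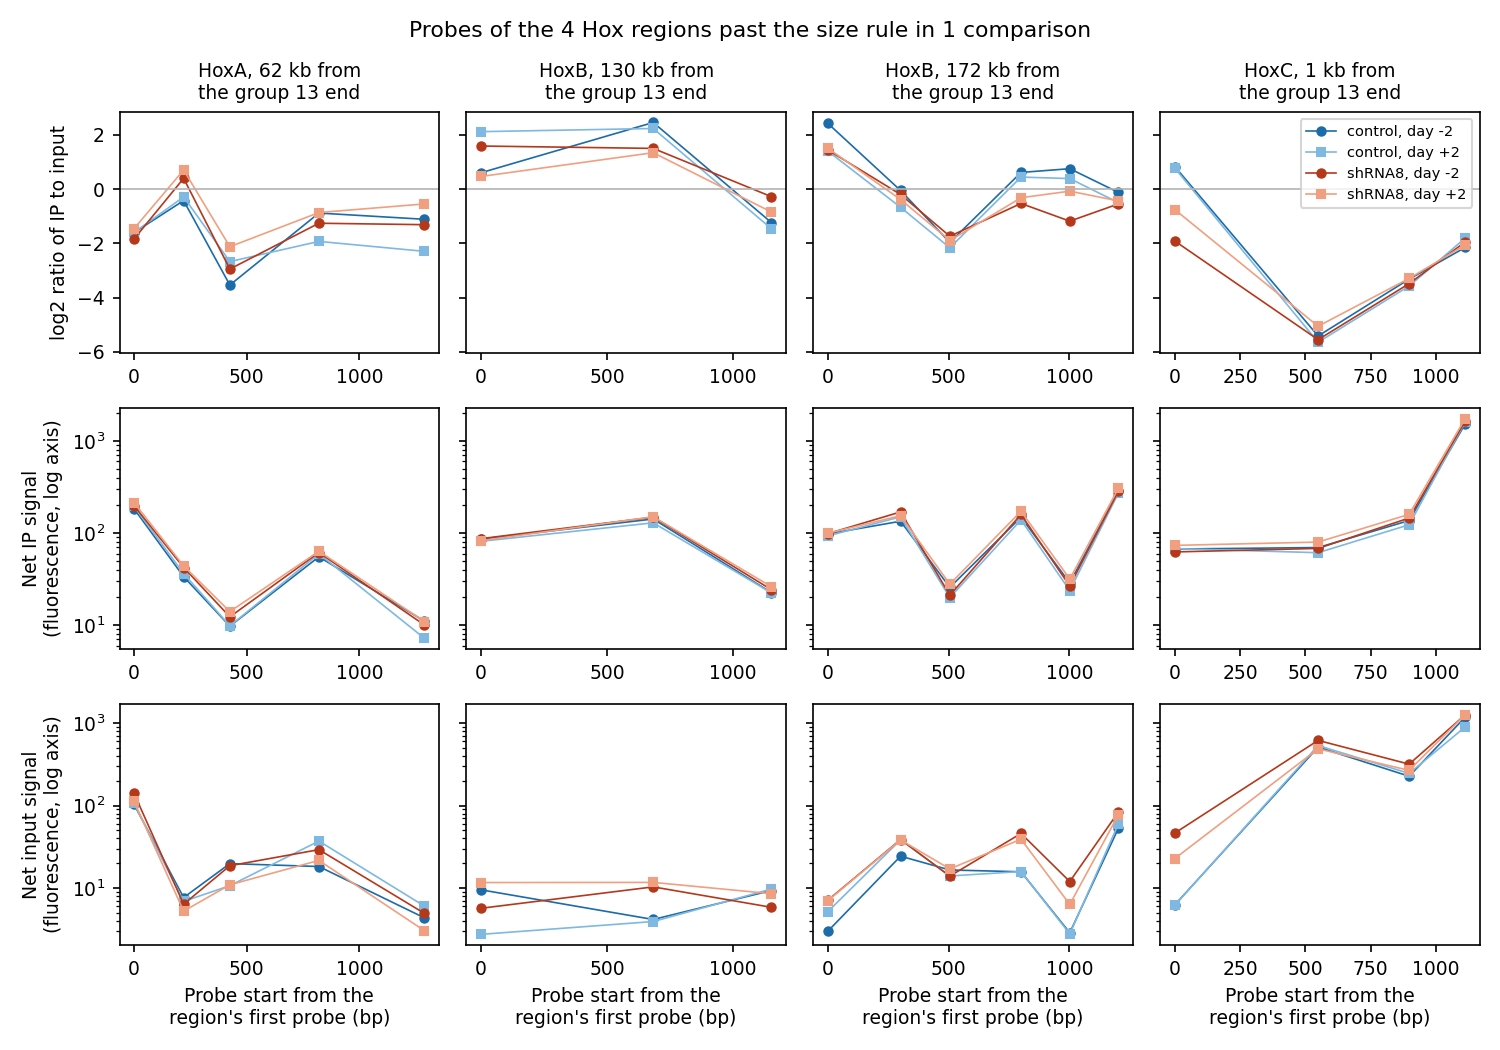
Log2 ratio (top), net IP signal (middle) and net input signal (bottom, both on log axes) of each probe in the 4 Hox regions that passed the size rule once, against the start of the probe in bp from the first probe, with one line per array. The lines part most in input at single probes, as at the first HoxC probe (6.29 in control and 46.5 in shRNA8 cells at day -2), and less in IP, as at the last HoxA probe (7.20 in control and 10.96 in shRNA8 cells at day +2).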

How the data were processed

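The 4 arrays measured genomic DNA of 3T3-L1 cells, 1 per line and day, with IP in Cy5 and input in Cy3, 1 µg each, per the labels' protocols. The authors deposited Feature Extraction 11.0.1.1 output on mm9, per the file headers. Its deposited intensity columns hold spot and background medians, background-subtracted and processed (dye-normalized) signals, and a deposited log10 ratio of the latter accompanies them. The submitters' processing notes name limma without a role.

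The log2 ratio of processed Cy5 to Cy3 was centred and quantile normalized over 95060 probes that were unflagged and had input above background on all arrays. Fits and regions used the whole array. No test was made with 1 array per group, and the number of arrays limits precision. Regions named are, per cluster, the 2 highest and 2 lowest levels, those past the size rule, the extremes per comparison, and those of at least 0.4 in a pair of comparisons. The members, thresholds and rule were chosen with earlier results of these data known. Lists of Hox neighbours, cofactors and Polycomb genes were not analysed here, since probes carry no gene names. The region step was tested on simulated data. Alternatives are given in the closing section. Loess used limma 3.58.1 in R 4.3.3, and all else pandas 2.3.3, numpy 2.4.6 and scipy 1.17.1 under Python 3.11.15, with figures from matplotlib 3.10.9.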

Additional observations from a re-analysis of the deposited data

Results flagged for a closer look

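The region chr11:96183539-96184736 in HoxB moved in opposite directions between the days in the lines, and the difference was not tested. It differed by 0.36 ± 1.00 (SD over 3 probes) in control cells and by -0.62 ± 0.48 in shRNA8 cells, so that the changes were 0.97 apart. In control cells 1 of the 3 probes was higher and 2 were lower. Its input was 9.37 and 3.94 in control cells and 5.87 and 11.7 in shRNA8 cells, and its IP 86.0, 81.4, 87.0 and 82.6. The part of the input in this difference was not tested apart from these values.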

How the results depend on the processing

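The deposited log ratio is made from the same processed signals, so it could not differ beyond rounding. Like it, median centring alone and autosomal centring kept every cluster level within its spread over arrays and every count. Of 40 alternatives for the levels, 19 moved by more than that spread. Without a filter on input HoxA was at 0.39, HoxC at 0.022 and HoxD at -0.20. With input well above background HoxA was at 0.34 and HoxC at 0.14. After loess HoxA was at 0.026 and HoxC at 0.12. The IP channel alone gave 0.43, 0.21 and -0.23 in HoxA, HoxC and HoxD. Removing probe length medians put HoxD at -0.30. Without background subtraction, an alternative chosen after seeing the data, HoxA was at 0.20, HoxB at 0.037, HoxC at -0.35 and HoxD at -0.28. The mean over probes gave -0.23, -0.41, -0.77 and -0.65 in that order of clusters. Here 0 stayed the array median, and no mean over the array was set beside these values. The quartiles of the other probes, averaged over arrays, were -1.09 and 0.84. The mean difference over the Hox regions stayed within its SD over regions in all 40 alternatives. That SD was 0.22 to 0.26, wider than the means themselves, so this was a loose limit. Between the lines the alternatives ran from -0.055 to 0.068 at day -2 and from -0.015 to 0.11 at day +2. Between the days they ran from -0.027 to 0.030 in control cells and from 0.0074 to 0.10 in shRNA8 cells. The sign thus changed between the lines at both days and in control cells.

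The counts of Hox regions past the size rule changed in 26 of 52 alternatives, in 24 of them by more than 1.5 times or to or from 0. At day -2 between the lines the count of 2 became 0 with input well above background (0.42% of all regions passed). It also became 0 with the IP channel alone (0%), no background subtraction (0.046%), a size of 1 (0.24%) or all probes one way (1.68%). With at least 5 probes it became 1 (1.14%). It became 3 after loess (5.27%) and 3 at a size of 0.4 (8.09%). At day +2 between the lines the count of 1 became 0 without a filter on input (2.04%). It also became 0 with input well above background (0.96%), the IP channel alone (0%), no background subtraction (0.080%) or a size of 1 (0.36%). It became 2 after loess (6.60%) and 3 at a size of 0.4 (10.3%). In control cells the count of 0 became 2 after loess (5.29%) and 5 at a size of 0.4 (7.43%). In shRNA8 cells the count of 1 became 0 without a filter on input (2.49%) or without probe length medians (3.00%). It also became 0 with input well above background (1.00%), the IP channel alone (0%) or no background subtraction (0.052%). At a size of 1 (0.52%) or with at least 5 probes (2.48%) it became 0 as well. It became 3 after loess (5.50%) and 5 at a size of 0.4 (8.31%). With the IP channel alone no region of the array passed in any comparison, so those counts of 0 do not set the Hox regions apart. The cause of the changed counts was not tested, beyond the fewer regions that a larger size or more probes allow. Of 680 alternatives for the named regions, 642 stayed within the SD over probes and 0 called values changed sign. With input well above background chr11:96183539-96184736 kept no region and has no value. No paired analysis was possible, since the shared replicate number only names the array. A model with both factors but no interaction would leave 1 residual degree of freedom and was not run. Dim input limits the ratios, and 1 array per group gives no replicate error.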

Other observations

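At day +2 the line difference of HoxA and HoxC lay mainly in the parts of the clusters far from Hoxa13 and Hoxc13. This split was looked at after the values were seen, was not tested and was not repeated with other processing. Among the other regions of the array 52.5% were higher in shRNA8 cells. In HoxA it was 0.34 ± 0.29 (SD over regions) on the Hoxa2 side, with 6 of 6 regions higher in shRNA8 cells, and 0.02 ± 0.20 on the Hoxa13 side, with 4 of 6. The Hoxa2 side holds chr6:52150233-52151570, whose 0.90 came to 0.18 without a filter on input. In HoxC it was 0.39 ± 0.21 on the Hoxc4 side, with 4 of 4 regions higher, and 0.03 ± 0.15 on the Hoxc13 side, with 4 of 6. HoxD had 0.21 ± 0.25 on the Hoxd1 side, with 3 of 4 regions higher, and 0.04 ± 0.10 on the Hoxd13 side, with 5 of 8. HoxB had -0.10 ± 0.30 on the Hoxb1 side, with 3 of 9 regions higher, and -0.04 ± 0.09 on the Hoxb13 side, with 1 of 4. On the sides with the larger differences the input differed by -0.38 in HoxA, -0.44 in HoxC and -0.22 in HoxD, and the IP by 0.01, 0.01 and 0.05. On the Hoxa2 side the mean ratio was -0.49 (day -2) and -0.57 (day +2) in control cells and -0.49 and -0.23 in shRNA8 cells. On the Hoxc4 side it was -0.48, -0.90, -0.53 and -0.51 in the same order. The array furthest from the others was thus shRNA8 at day +2 in HoxA but control at day +2 in HoxC.

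Of the 49 tiled segments, 3 gave no region because too few neighbouring probes had input above background on all 4 arrays. They were chr6:52168073-52169689 with 2 of 8 probes kept, chr6:52210676-52213092 with 4 of 11, both in HoxA, and chr2:74558979-74560399 in HoxD with 2 of 7.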
